A study of Homo sapiens with 9 samples.

Results

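LINC RNAs, the long intergenic noncoding transcripts that carry a LINC number as their symbol, were followed through the exit of human embryonic stem cells toward 2 early lineages. A symbol was included where the mean RPKM (read density per kilobase of transcript, scaled to the size of the library) of its most abundant transcript over all 9 libraries was at least 0.5, and 69 of the 366 LINC symbols met this, out of 21417 gene symbols listed. The mean over all libraries chose them, so their overall level is a description and not a finding. The neuroectoderm libraries (n = 3) came from H9 cells at day 5 with 200 nM NOGGIN, a BMP antagonist, and 10 µM SB431542, an inhibitor of the activin and Nodal receptors. The mesendoderm libraries (n = 3) came from H9 cells at day 5 with 5 ng/ml BMP4 in mTeSR1 medium. The hESC libraries (n = 3) are undifferentiated H9 cells at day 0 on Matrigel in mTeSR1. All 3 groups therefore share 1 cell line, an established line from a single embryo. Whether replicate libraries are separate cultures is not stated in the labels, and every p-value given here reflects library-to-library spread that may be technical.

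Long noncoding RNAs are transcribed and often spliced like messenger RNAs but lack a long open reading frame. Some act on neighbouring genes, some bind proteins or other RNAs, some are the precursors of microRNAs or small nucleolar RNAs, and several first catalogued as noncoding were later found to encode small proteins. Their levels are typically lower and more cell type specific than those of messenger RNAs, and pluripotent stem cells have a characteristic set of them.

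Several of these transcripts are microRNA hosts. The 5p arms of the microRNAs annotated within LINC00461 (now MIR9-2HG) and LINC00085 (now SPACA6) are shown, without their 3p arms, because their rows or their hosts are described further on. Sequences are from RefSeq on GRCh38.p14, 5′ to 3′, with the seed (bases 2 to 8) in capitals, and no 2 of the 4 share a seed. The 3 shown for LINC00085 lie within chr19:51692618-51693291.
hsa-miR-9-5p: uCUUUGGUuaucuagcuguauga
hsa-miR-99b-5p: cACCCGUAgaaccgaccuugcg
hsa-let-7e-5p: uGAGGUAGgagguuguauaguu
hsa-miR-125a-5p: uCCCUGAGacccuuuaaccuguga

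Promoter windows from RefSeq (GRCh38.p14, 250 bases before to 50 after the annotated start) were matched for the LINC RNAs where the table had an entry. The 59 windows found had a median GC content of 55.3%, against 58.7% over 35116 windows of all genes. The windows of LINC00263, LINC00941 and LINC00862 are shown because these 3 are among the 4 transcripts that were low in neuroectoderm only. The other, LINC00678, was not matched to a window. That of LINC00152 is shown as the single mesendoderm-restricted transcript. CpG dinucleotides are in capitals. LINC00263 (chr10:100373326-100373625, plus strand) held 16 of them, LINC00941 (chr12:30795431-30795730, plus strand) 21, LINC00862 (chr1:200373743-200374042, minus strand) 3 and LINC00152 (chr2:87455177-87455476, plus strand) 5, against a median of 14 over all windows.
LINC00263: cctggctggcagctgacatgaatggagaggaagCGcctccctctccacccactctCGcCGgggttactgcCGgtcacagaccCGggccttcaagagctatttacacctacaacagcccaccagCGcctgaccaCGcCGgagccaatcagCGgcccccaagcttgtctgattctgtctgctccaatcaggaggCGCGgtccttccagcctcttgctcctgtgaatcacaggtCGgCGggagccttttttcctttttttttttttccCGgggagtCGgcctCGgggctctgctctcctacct
LINC00941: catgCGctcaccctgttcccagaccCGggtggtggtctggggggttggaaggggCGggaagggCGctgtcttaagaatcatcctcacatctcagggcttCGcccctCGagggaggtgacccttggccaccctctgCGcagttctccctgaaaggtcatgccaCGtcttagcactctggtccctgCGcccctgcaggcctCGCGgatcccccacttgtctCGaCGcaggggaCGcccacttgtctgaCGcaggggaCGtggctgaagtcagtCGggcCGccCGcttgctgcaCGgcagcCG
LINC00862: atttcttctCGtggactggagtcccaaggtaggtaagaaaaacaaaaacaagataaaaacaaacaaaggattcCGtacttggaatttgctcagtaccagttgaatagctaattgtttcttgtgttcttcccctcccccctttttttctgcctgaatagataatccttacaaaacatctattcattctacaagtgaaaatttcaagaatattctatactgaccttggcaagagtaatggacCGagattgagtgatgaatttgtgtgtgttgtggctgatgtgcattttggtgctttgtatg
LINC00152: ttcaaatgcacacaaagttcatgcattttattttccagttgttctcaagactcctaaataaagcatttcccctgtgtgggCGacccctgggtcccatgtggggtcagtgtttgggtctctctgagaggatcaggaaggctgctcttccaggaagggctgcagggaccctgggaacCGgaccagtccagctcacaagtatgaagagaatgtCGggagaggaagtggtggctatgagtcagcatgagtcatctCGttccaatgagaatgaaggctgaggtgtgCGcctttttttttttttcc

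The 3 windows shown of transcripts low in neuroectoderm thus include CpG-rich and CpG-poor starts. Neither the octamer motif ATGCAAAT nor its reverse complement ATTTGCAT was found in these 4 windows. Among all 35116 windows 1.77% hold it on either strand. These matches describe the letters of the windows only.

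The libraries separated by cell type, with Pearson correlations of 0.933 to 0.992 across genes within groups. The labels matched the markers in broad terms. Summed over 6 neuroectoderm markers, the RPKM lay between 212.1 and 245.1 in neuroectoderm, 6.21 and 7.33 in mesendoderm and 34.7 and 41.0 in hESC, with LHX2 and SIX3 near 0 in every library. Summed over 6 primitive streak and mesoderm markers it lay between 3.62 and 4.36 in neuroectoderm, 259.1 and 301.8 in mesendoderm and 21.6 and 23.9 in hESC. In mesendoderm, endoderm markers were carried by CER1, while SOX17, FOXA2 and AFP were at most 0.32 RPKM there. Summed over 5 trophoblast and amnion markers the RPKM lay between 55.2 and 69.1 in mesendoderm, 1.07 and 1.36 in neuroectoderm and 4.93 and 7.28 in hESC. Of these 5, GATA3, KRT7, TFAP2A and ISL1 were highest in mesendoderm. CGA was not, and was at most 0.38 RPKM in any library. The denominators of the RPKM values, inferred from the values themselves, were 36.95 to 69.5 M reads. By these, 3 reads on a transcript of 1 kb amount to 0.0432 to 0.0812 RPKM. Neuroectoderm replicate 1, mesendoderm replicate 1 and hESC replicate 2 stood apart from the other libraries of their groups along component 3 of the variation (12.3% of variance). In all 3 of them genes of low GC content stood above their group mean: over 14358 genes, deviation and GC content had Spearman correlations of -0.562, -0.290 and -0.617, against 0.196 to 0.586 in the other 6 libraries. Across the 66 LINC RNAs with a known GC content the corresponding values were -0.220, -0.186 and -0.268. Genes are not independent replicates, and what part this plays in a result was not tested.

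Most LINC RNAs were scarce. By their mean over the 9 libraries 23 of 69 (33.3%) lay between 0.5 and 1 RPKM, 17 between 1 and 2, 16 between 2 and 5, 9 between 5 and 10 and 4 (5.80%) at 10 or more. Of the 14473 genes tested, all at 0.5 RPKM or above on average, 9.50% and 38.3% lay in the lowest and the highest of these ranges. The median was 1.46 RPKM for the LINC RNAs and 6.86 RPKM for all genes tested. In 40 of the 69 the mean was at least 0.5 RPKM in each of the 3 groups. Another 7 reached it in 1 group only, which were LINC00966, LINC00890, LINC00663 and LINC00894 in neuroectoderm, LINC00152 in mesendoderm, and LINC00698 and LINC00461 in hESC. These passed the minimum through the group where they are high, so that a difference between groups is built into their selection. Any p-value given for them further on describes the libraries and is not independent support for such a difference. The same limit holds for other members whose overall mean rests mostly on 1 group, such as LINC00599. It averaged 0.170 RPKM in neuroectoderm, 0.613 RPKM in mesendoderm and 13.1 RPKM in hESC.

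The 69 were sorted into classes by a single rule. A transcript was taken as restricted to a group where that group averaged at least 0.5 RPKM and at least 4 times each other group, with no overlap between libraries and a call in both contrasts. Low in 1 group only is the reverse of this, broad means that the highest group mean was under 2 times the lowest, and the rest are graded. By this rule 2 were restricted to neuroectoderm (1.73% of all genes tested were), 1 to mesendoderm (2.52%) and 2 to hESC (1.04%). A further 4 were low in neuroectoderm only (2.98%), 1 in mesendoderm only (1.09%) and 3 in hESC only (0.967%). The broad class held 27 (60.8%) and the graded class 29 (28.9%). At least 2 times in place of 4 gave 6, 2 and 8 restricted to neuroectoderm, mesendoderm and hESC.

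**Figure D1:**
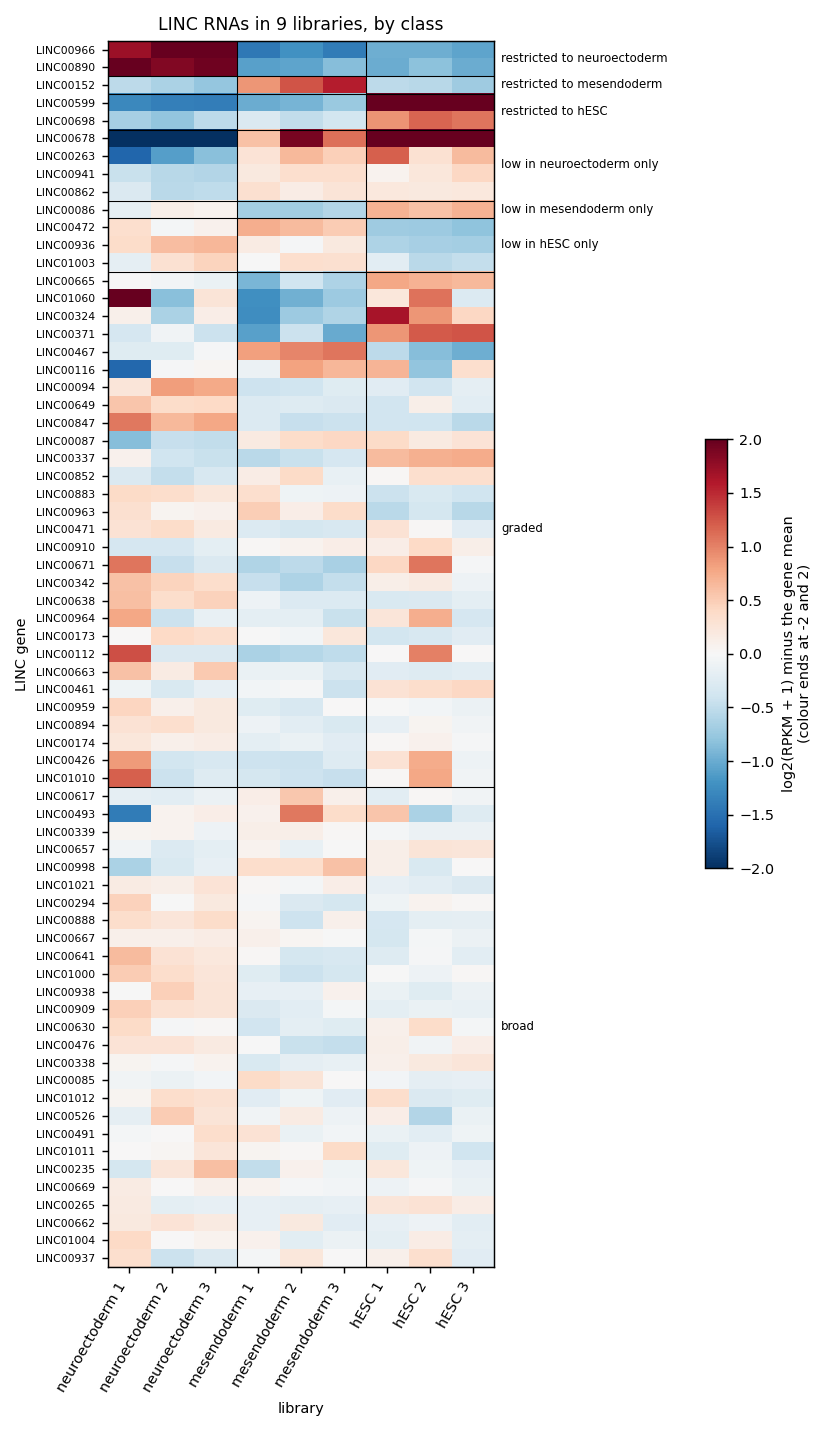
Levels of the 69 LINC RNAs (rows, grouped by class) in 9 libraries (columns), as log2(RPKM + 1) minus the gene's mean over the libraries, with colour ends at -2 and 2. The 13 rows at the top change by class as blocks, and several graded rows, such as LINC01060 and LINC01010, are reddest in neuroectoderm replicate 1 and hESC replicate 2.

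LINC00966 and LINC00599 are named for genes of the same microRNA family and were found at opposite ends of the comparison. Both are annotated on chromosome 8, LINC00966 as MIR124-2HG and LINC00599 as MIR124-1HG, and miR-124 is the microRNA known for its abundance in neurons. LINC00966 had 7.84, 16.28 and 15.84 RPKM in neuroectoderm, 0.00, 0.17 and 0.02 RPKM in mesendoderm and 0.37, 0.37 and 0.30 RPKM in hESC. It was high in neuroectoderm alone, with mesendoderm lower than hESC in each library. LINC00599 had 0.22, 0.15 and 0.14 RPKM in neuroectoderm, 0.50, 0.56 and 0.78 RPKM in mesendoderm and 12.21, 13.26 and 13.88 RPKM in hESC. It was high in hESC alone. In limma with Benjamini-Hochberg adjustment over all genes, the difference in log2(RPKM + 1) of neuroectoderm against hESC was 3.35 ± 0.23 (SE; adjusted p = 5.81e-06) for LINC00966 and -3.59 ± 0.10 (adjusted p = 4.83e-08) for LINC00599. Mesendoderm against hESC gave -0.34 ± 0.23 (adjusted p = 0.285) for LINC00966 and -3.13 ± 0.10 (adjusted p = 1.12e-07) for LINC00599. Between groups, though not within them, the rows of the microRNA genes followed these transcripts. RefSeq places MIR124-2 inside LINC00966, and MIR124-1 beside LINC00599 but not within it. MIR124-2 had 5.42, 2.63 and 3.34 RPKM in neuroectoderm, 0 in the 3 mesendoderm libraries and 0.45, 0.40 and 0.19 RPKM in hESC. Neuroectoderm replicate 1 was thus the highest of its group for MIR124-2 and the lowest for LINC00966. MicroRNA genes are short, so low RPKM values in their rows rest on few reads. MIR124-1 was listed at 0 in all neuroectoderm and mesendoderm libraries and had 2.02, 2.30 and 1.48 RPKM in hESC. Reads of LINC00966 and of the microRNA gene in it cannot be told apart in these values, and neither microRNA row was taken as a measure of mature miR-124.

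**Figure D2:**
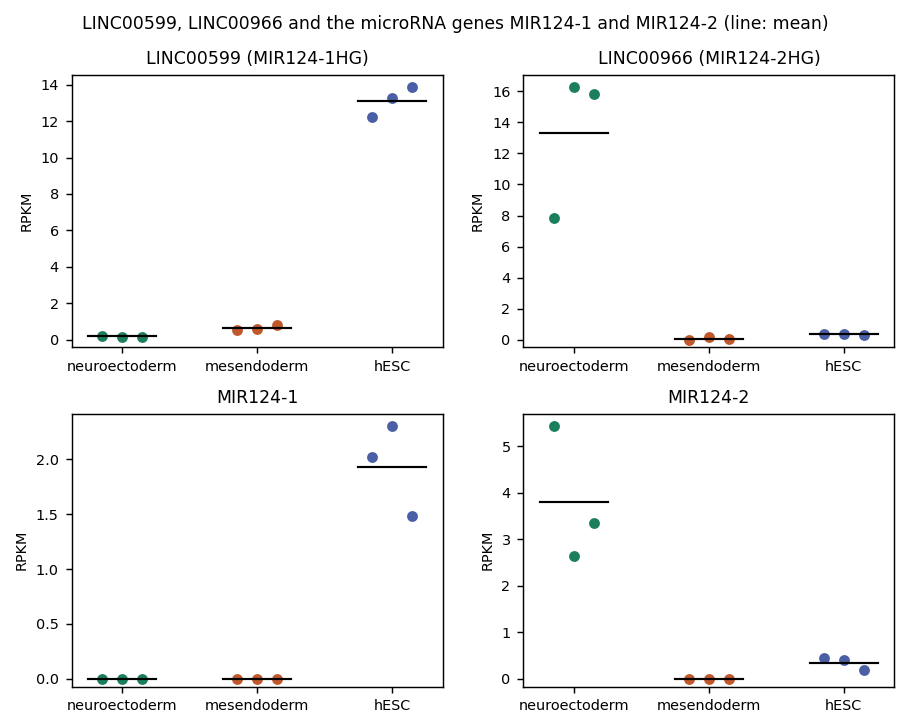
RPKM (vertical axis) of LINC00599 and LINC00966 and of the microRNA genes MIR124-1 and MIR124-2, with 1 point per library and a line at the group mean. LINC00599 averaged 13.1 RPKM in hESC and LINC00966 averaged 13.3 RPKM in neuroectoderm, and each was under 0.8 RPKM in every other library.

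LINC00890 was the other neuroectoderm-restricted transcript. RefSeq now lists it as SERTM2, a protein-coding gene on chromosome X. It had 7.82, 6.98 and 7.54 RPKM in neuroectoderm, 0.04, 0.07 and 0.23 RPKM in mesendoderm and 0.12, 0.25 and 0.12 RPKM in hESC. The neuroectoderm libraries were close together and far above the rest. The difference of neuroectoderm against hESC was 2.86 ± 0.10 (adjusted p = 1.47e-07), and mesendoderm did not pass the threshold against hESC (-0.07 ± 0.10, adjusted p = 0.651). Its annotated neighbour DCX, the microtubule protein of migrating neurons, showed another pattern, averaging 1.49 ± 0.0493 RPKM in neuroectoderm, 0.177 ± 0.0611 RPKM in mesendoderm and 1.19 ± 0.0321 RPKM in hESC (SD, n = 3 each).

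LINC00698 was the second hESC-restricted transcript, at a lower level. It had 0.20, 0.10 and 0.33 RPKM in neuroectoderm, 0.56, 0.35 and 0.47 RPKM in mesendoderm and 2.56, 3.25 and 2.98 RPKM in hESC. The difference from hESC was -1.70 ± 0.11 in neuroectoderm (adjusted p = 4.07e-06) and -1.43 ± 0.11 in mesendoderm (adjusted p = 1.71e-05). It did not reach 8 times each other group, under which LINC00599 remained as the sole hESC-restricted member.

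LINC00152, now CYTOR, a cytoskeleton-associated transcript studied for its part in cell growth, was the mesendoderm-restricted member. It had 0.24, 0.14 and 0.04 RPKM in neuroectoderm, 2.29, 3.23 and 4.29 RPKM in mesendoderm and 0.24, 0.21 and 0.08 RPKM in hESC. The lowest mesendoderm library was above every library of the other groups. Its difference from hESC was 1.84 ± 0.16 in mesendoderm (adjusted p = 4.19e-05) and -0.05 ± 0.16 in neuroectoderm (adjusted p = 0.845). CYTOR has a near-identical copy on the same chromosome, the host of MIR4435, and how reads that match both were counted is not given in the sources used here. The row MIR4435-1HG had 0.52, 0.45 and 0.36 RPKM in neuroectoderm, 3.17, 2.71 and 2.37 RPKM in mesendoderm and 0.21, 0.93 and 0.69 RPKM in hESC. Both rows were higher in mesendoderm, and which copy the reads came from is uncertain.

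LINC00678, a transcript known from human pluripotent cells and annotated on chromosome 11 overlapping BDNF-AS, was the most abundant LINC RNA and the one with the largest change. It had 0.00, 0.01 and 0.02 RPKM in neuroectoderm, 18.86, 48.33 and 27.40 RPKM in mesendoderm and 86.90, 65.91 and 74.23 RPKM in hESC. The groups did not overlap, and the mesendoderm libraries spread widely between the extremes. Its difference from hESC in log2(RPKM + 1) was -6.24 ± 0.28 in neuroectoderm (adjusted p = 4.89e-07) and -1.33 ± 0.28 in mesendoderm (adjusted p = 0.0059). LINC00678 is therefore not stem cell restricted by the rule: its mean was 31.5 ± 15.2 RPKM in mesendoderm, against 75.7 ± 10.6 RPKM in hESC (SD, n = 3 each). The homeobox gene NANOG, a marker of pluripotency, had 0.18, 0.08 and 0.12 RPKM in neuroectoderm, 7.68, 18.42 and 10.55 RPKM in mesendoderm and 22.21, 20.67 and 23.21 RPKM in hESC. Mesendoderm replicate 2 was the highest of its group for both transcripts. Summed over 6 pluripotency markers the RPKM lay between 77.6 and 92.1 in neuroectoderm, 205.0 and 261.0 in mesendoderm and 471.8 and 486.9 in hESC. The markers did not share 1 pattern. NANOG, TDGF1, L1TD1 and DPPA4 had the order of LINC00678. SOX2 averaged 42.6 RPKM in neuroectoderm, 3.11 RPKM in mesendoderm and 63.3 RPKM in hESC. ZFP42 averaged 19.3 RPKM in neuroectoderm and was alike in mesendoderm (82.6 RPKM) and hESC (83.7 RPKM). In bulk samples fewer cells of a type and less RNA per cell cannot be told apart.

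LINC00263, now OLMALINC, LINC00941 and LINC00862 shared the low level in neuroectoderm, at far lower abundance. LINC00263 had 0.94, 1.71 and 2.26 RPKM in neuroectoderm, 6.01, 8.12 and 7.08 RPKM in mesendoderm and 12.29, 6.17 and 7.97 RPKM in hESC. Its difference from hESC was -1.88 ± 0.25 in neuroectoderm (adjusted p = 0.000335) and -0.24 ± 0.25 in mesendoderm (adjusted p = 0.50). The call held in every alternative, but the 4-fold margin did not: without neuroectoderm replicate 1, without mesendoderm replicate 2, or without the 3 libraries that stood apart, LINC00263 was graded. LINC00941 had 0.11, 0.03 and 0.01 RPKM in neuroectoderm, 0.74, 0.91 and 0.92 RPKM in mesendoderm and 0.59, 0.78 and 1.03 RPKM in hESC. LINC00862 had 0.22, 0.03 and 0.05 RPKM in neuroectoderm, 0.86, 0.65 and 0.79 RPKM in mesendoderm and 0.73, 0.72 and 0.74 RPKM in hESC. Both were near the level of a few reads in neuroectoderm and overlapped between the other groups. Their differences of neuroectoderm against hESC were -0.77 ± 0.11 (adjusted p = 0.000453) and -0.66 ± 0.10 (adjusted p = 0.000569).

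LINC00086 was low in mesendoderm only, and its near-identical X-linked copy LINC00087 showed a different order. LINC00086 had 0.71, 1.10 and 1.04 RPKM in neuroectoderm, 0.21, 0.20 and 0.29 RPKM in mesendoderm and 2.13, 1.93 and 2.14 RPKM in hESC. LINC00087 had 0.24, 0.63 and 0.60 RPKM in neuroectoderm, 1.54, 1.90 and 1.99 RPKM in mesendoderm and 1.93, 1.54 and 1.71 RPKM in hESC. Mesendoderm was thus the lowest group for LINC00086, while for LINC00087 neuroectoderm was the lowest. The symbols map to SMIM10L2A and SMIM10L2B, both protein coding in RefSeq, without a one-to-one assignment, and the split of reads between the copies is uncertain. The 4-fold margin of LINC00086 was lost without neuroectoderm replicate 2 or 3 and without mesendoderm replicate 1 or 2.

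The 3 transcripts low in hESC only were LINC00472, LINC00936 and LINC01003. LINC00472 had 1.87, 1.21 and 1.43 RPKM in neuroectoderm, 2.78, 2.54 and 2.23 RPKM in mesendoderm and 0.39, 0.37 and 0.30 RPKM in hESC. It rose against hESC by 0.88 ± 0.11 in neuroectoderm (adjusted p = 0.000275) and by 1.38 ± 0.11 in mesendoderm (adjusted p = 2.54e-05), and was graded without neuroectoderm replicate 1, without hESC replicate 3 or without the 3 libraries that stood apart. LINC00936, now ATP2B1-AS1, had 1.43, 1.90 and 2.01 RPKM in neuroectoderm, 1.11, 0.86 and 1.17 RPKM in mesendoderm and 0.23, 0.19 and 0.18 RPKM in hESC. It rose by 1.21 ± 0.11 in neuroectoderm (adjusted p = 2.86e-05) and by 0.77 ± 0.11 in mesendoderm (adjusted p = 0.000611). LINC01003 had 0.39, 0.96 and 1.16 RPKM in neuroectoderm, 0.57, 0.99 and 0.98 RPKM in mesendoderm and 0.36, 0.09 and 0.14 RPKM in hESC. Its rises of 0.60 ± 0.18 (adjusted p = 0.0239) and 0.62 ± 0.18 (adjusted p = 0.0252) were lost without hESC replicate 2 (adjusted p = 0.0729 and 0.0808) and without hESC replicate 3 (0.0735 and 0.0773). That in neuroectoderm was also lost without neuroectoderm replicate 2 (0.0709) or 3 (0.0854), and that in mesendoderm without mesendoderm replicate 2 (0.0757) or 3 (0.0875).

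**Figure D3:**
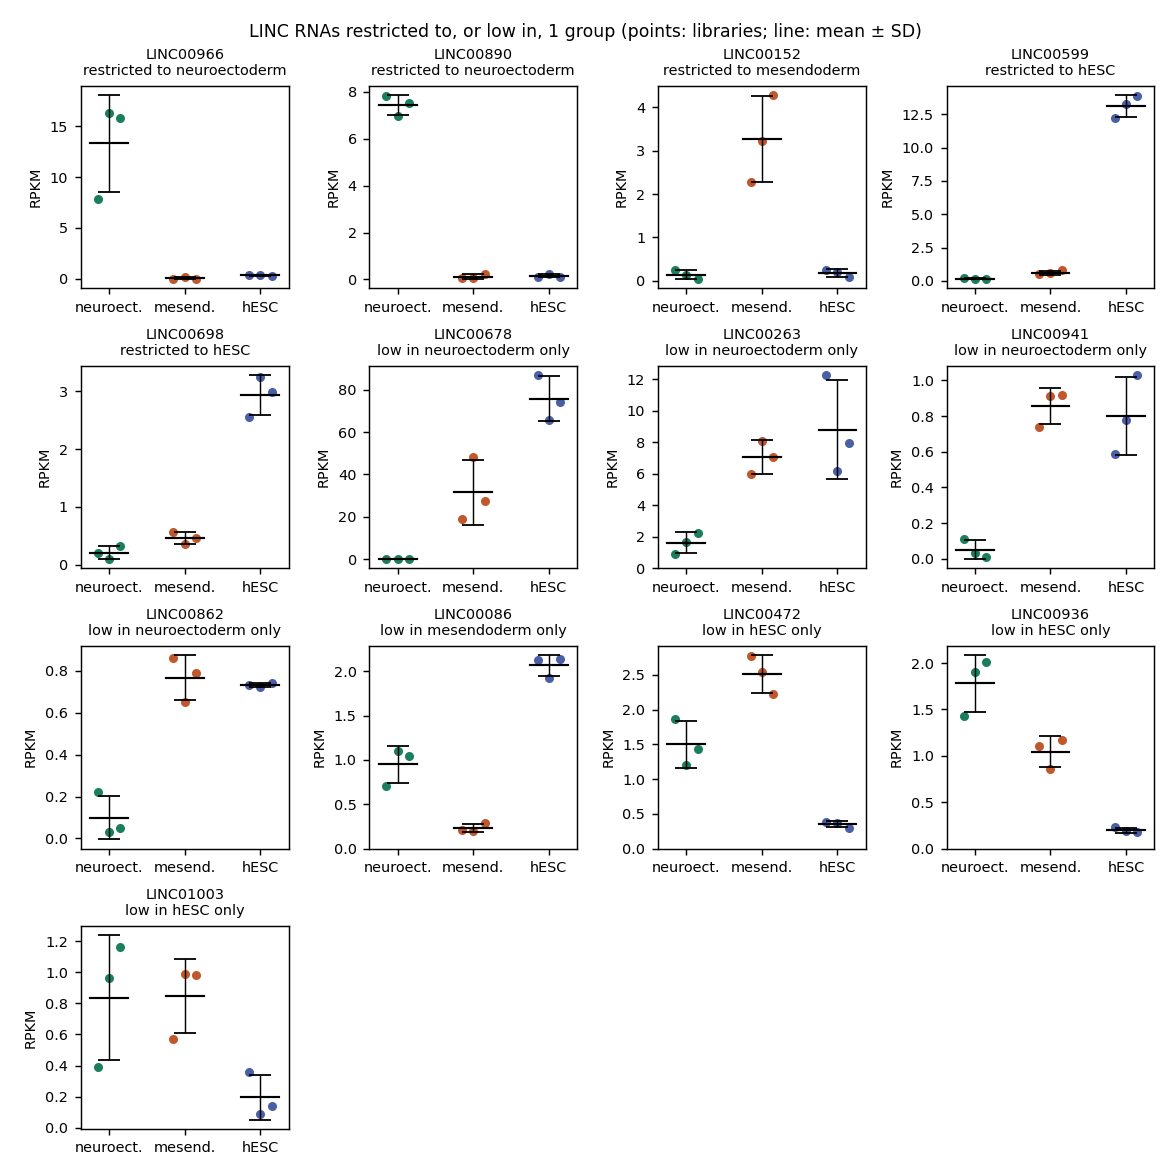
RPKM (vertical axis, from a separate scale per panel) of the 13 LINC RNAs restricted to 1 group or low in 1 group only. Points are libraries, and lines and whiskers are the mean and SD of 3 libraries; LINC00599, for example, averaged 0.170, 0.613 and 13.1 RPKM in neuroectoderm, mesendoderm and hESC.

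The share of LINC RNAs called in neuroectoderm against hESC was above that of all genes. At an adjusted p under 0.05, 24 of 69 were higher and 16 lower in neuroectoderm, 58.0% in all, while 44.2% of all 14473 genes tested were called, 21.9% higher and 22.3% lower. The median difference was 0.18 for the LINC RNAs and -0.02 for all genes. All 40 called members had groups that did not overlap, and 30 of the 69 did not overlap with neuroectoderm higher and 17 with neuroectoderm lower, while 51.9% of all genes did not overlap (25.4% higher and 26.5% lower). Beyond the restricted members and those low in 1 group only, the largest rise was in LINC00847, which had 4.34, 3.02 and 3.41 RPKM in neuroectoderm, 1.13, 0.88 and 0.91 RPKM in mesendoderm and 0.98, 0.96 and 0.78 RPKM in hESC. It was 1.26 ± 0.12 higher against hESC (adjusted p = 4.12e-05) and overlaps the zinc finger gene ZFP62. LINC00094, now the coding gene BRD3OS opposite BRD3, had 3.78, 6.18 and 5.79 RPKM in neuroectoderm, 2.03, 2.07 and 2.39 RPKM in mesendoderm and 2.45, 2.08 and 2.57 RPKM in hESC. LINC00638 averaged 1.42 ± 0.211 RPKM in neuroectoderm and 0.460 ± 0.0608 RPKM in hESC, and LINC00883, now DUBR, 1.57 ± 0.140 and 0.583 ± 0.0681 RPKM (SD, n = 3 each). The rises of these 3 were 0.87 ± 0.15, 0.73 ± 0.10 and 0.70 ± 0.13 (adjusted p = 0.00166, 0.000349 and 0.00204).

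Among the falls in neuroectoderm beyond the classes above, LINC00371, now the coding gene C13orf42, had 3.61, 4.52 and 3.28 RPKM in neuroectoderm, 1.73, 3.30 and 1.88 RPKM in mesendoderm and 9.64, 12.51 and 12.92 RPKM in hESC. All differentiated libraries were below all hESC libraries. LINC00337, now ICMT-DT, a divergent transcript of the methyltransferase gene ICMT, had 1.32, 0.66 and 0.59 RPKM in neuroectoderm, 0.49, 0.59 and 0.73 RPKM in mesendoderm and 2.37, 2.57 and 2.63 RPKM in hESC. The coding partner ICMT averaged 30.3 ± 1.35 RPKM in neuroectoderm and 33.25 ± 1.40 RPKM in hESC and did not pass the threshold. LINC00324 had 6.11, 3.27 and 6.27 RPKM in neuroectoderm, 1.80, 3.01 and 3.38 RPKM in mesendoderm and 19.80, 11.27 and 7.84 RPKM in hESC. The hESC libraries of LINC00324 differed among themselves, and its difference of -1.12 ± 0.33 in neuroectoderm (adjusted p = 0.0232) was lost without hESC replicate 1 (adjusted p = 0.0724) or neuroectoderm replicate 2 (0.0738). The differences of LINC00371 and LINC00337 were -1.40 ± 0.19 (adjusted p = 0.000393) and -0.94 ± 0.14 (adjusted p = 0.000749). LINC00665, the second most abundant member, had 19.15, 18.19 and 17.10 RPKM in neuroectoderm, 9.64, 14.08 and 11.98 RPKM in mesendoderm and 33.07, 31.37 and 30.10 RPKM in hESC, 3 levels that did not overlap.

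In mesendoderm against hESC 10 of 69 LINC RNAs were higher and 13 lower, 33.3% in all, close to the 35.1% of all genes (17% higher and 18.1% lower). The median difference was -0.09 for the LINC RNAs and -0.02 for all genes. The groups did not overlap for 15 with mesendoderm higher and 23 with it lower, and for 54.7% of all genes (26% higher and 28.7% lower). Without hESC replicate 3 the count of higher members was 5 and without mesendoderm replicate 1 it was 6, and without neuroectoderm replicate 1, through the shared estimate of spread, 20 were lower. All genes were called at 26.6%, 27.7% and 46.3% in these fits, against 35.1% with all libraries. The second largest rise after LINC00152 was that of LINC00467, which had 3.57, 3.55 and 4.29 RPKM in neuroectoderm, 8.54, 9.55 and 10.29 RPKM in mesendoderm and 2.73, 1.98 and 1.75 RPKM in hESC. Mesendoderm was the highest group in every library, and the rise was 1.74 ± 0.13 (adjusted p = 1.58e-05). LINC00963 averaged 1.39 ± 0.295 RPKM in mesendoderm and 0.360 ± 0.104 RPKM in hESC (SD, n = 3 each; difference 0.81 ± 0.12, adjusted p = 0.00102). LINC00998, now SMIM30, which encodes a small membrane protein, had 4.03, 5.27 and 5.96 RPKM in neuroectoderm, 8.88, 8.88 and 10.67 RPKM in mesendoderm and 7.47, 5.30 and 6.83 RPKM in hESC. Its rise of 0.48 ± 0.16 in mesendoderm (adjusted p = 0.0408) was lost without hESC replicate 2 (0.129) or 3 (0.0799), without neuroectoderm replicate 2 (0.0535), and without mesendoderm replicate 1 (0.0714), 2 (0.0682) or 3 (0.145). The rise of LINC00883, 0.43 ± 0.13 (adjusted p = 0.0289), was 0.28 without mesendoderm replicate 1 (0.0596) and was also lost without hESC replicate 1 (0.0852) or 3 (0.0815).

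The largest falls in mesendoderm after LINC00599 were those of LINC00371 (-1.96 ± 0.19, adjusted p = 7e-05) and LINC00324 (-1.84 ± 0.33, adjusted p = 0.0026). LINC00665 averaged 11.9 ± 2.22 RPKM in mesendoderm, against 31.5 ± 1.49 RPKM in hESC (SD, n = 3 each), a difference of -1.35 ± 0.14 (adjusted p = 8.12e-05). LINC00337 fell by 1.14 ± 0.14 (adjusted p = 0.000331). LINC00086 fell by 1.31 ± 0.10 (adjusted p = 1.56e-05).

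**Figure D4:**
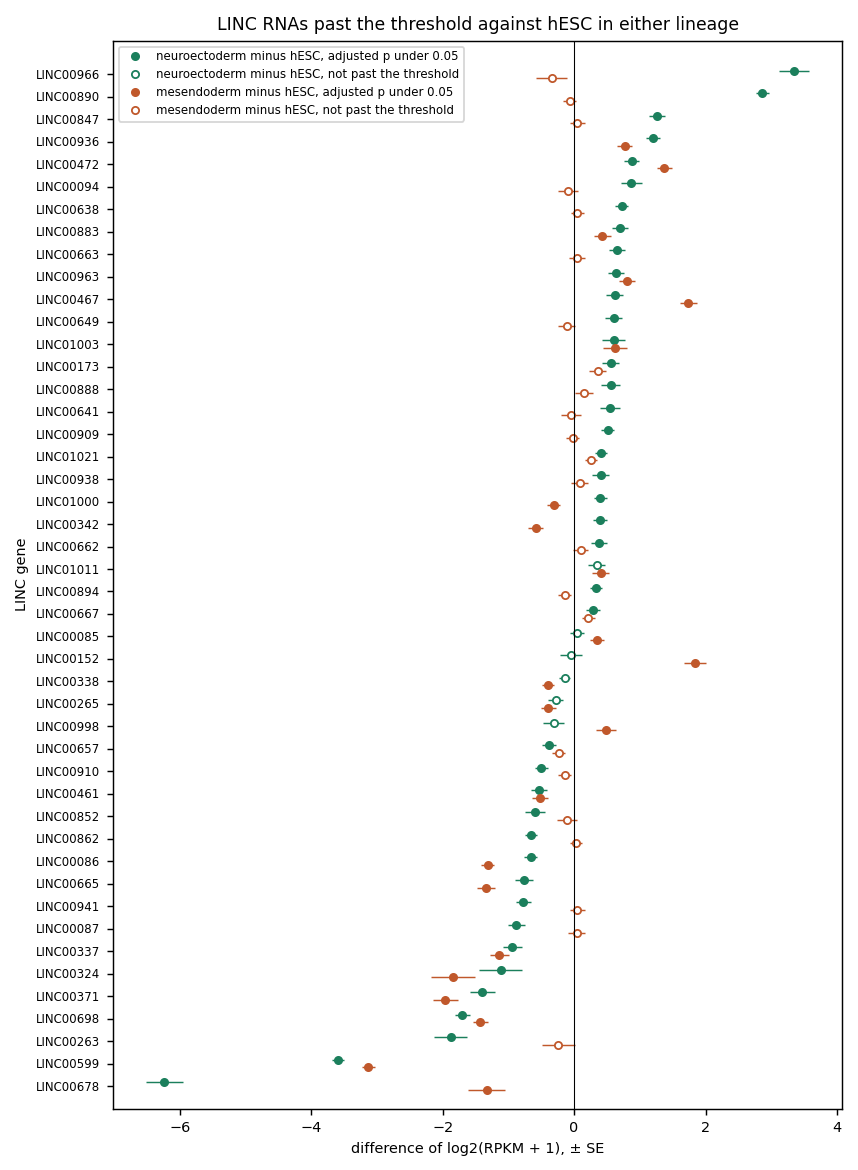
Differences in log2(RPKM + 1) against hESC (horizontal axis, ± SE) of the LINC RNAs that passed the threshold in neuroectoderm or mesendoderm. Filled points are past an adjusted p of 0.05 and open points are not; LINC00678 lies at -6.24 in neuroectoderm and -1.33 in mesendoderm, and LINC00966 at 3.35 and -0.34.

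Set directly against mesendoderm, neuroectoderm had 24 LINC RNAs higher and 14 lower (55.1%), against 48.1% of all genes (24% higher and 24.1% lower), with a median difference of 0.27 for the LINC RNAs and -0.01 for all genes. The groups did not overlap for 26 with neuroectoderm higher and 15 with it lower, and for 57.2% of all genes (27.8% higher and 29.4% lower). Without the 3 libraries that stood apart, 21 were higher and 14 lower, and 60.3% of all genes were called. The share of LINC RNAs called was then below that of all genes. LINC00342 had 1.64, 1.39 and 1.23 RPKM in neuroectoderm, 0.27, 0.14 and 0.26 RPKM in mesendoderm and 0.91, 0.98 and 0.63 RPKM in hESC, 3 groups without overlap, and differed by 0.98 ± 0.11 (adjusted p = 8.97e-05). LINC00649 averaged 2.98 ± 0.265 RPKM in neuroectoderm and 1.42 ± 0.0306 RPKM in mesendoderm (SD, n = 3 each; 0.72 ± 0.13, adjusted p = 0.00146). LINC01000 averaged 3.51 ± 0.429 and 1.76 ± 0.177 RPKM in neuroectoderm and mesendoderm (0.71 ± 0.10, adjusted p = 0.00037). Lower in neuroectoderm than in mesendoderm were LINC00467 (-1.12 ± 0.13, adjusted p = 0.00013), LINC00087 (-0.92 ± 0.13, adjusted p = 0.00036) and LINC00998 (-0.79 ± 0.16, adjusted p = 0.00282). With the replicate number as a block 4 calls of this comparison were lost, those of LINC00085 (adjusted p = 0.0694), LINC00338 (0.0671), LINC00630 (0.0732) and LINC00852 (0.05).

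The broad class held several of the better studied LINC RNAs. LINC00657, now NORAD, which binds PUMILIO proteins, had 8.76, 7.47 and 7.95 RPKM in neuroectoderm, 9.74, 8.20 and 9.19 RPKM in mesendoderm and 10.12, 11.23 and 11.09 RPKM in hESC. Its small fall in neuroectoderm (-0.38 ± 0.10, adjusted p = 0.0139) was lost without hESC replicate 3 (0.0541) or neuroectoderm replicate 2 (0.0505) and after rescaling of the libraries by TMM factors (0.0545). LINC00617, now TUNAR, a transcript tied to neural differentiation in mouse embryonic stem cells, had 9.37, 9.15 and 9.92 RPKM in neuroectoderm, 11.87, 16.12 and 11.71 RPKM in mesendoderm and 9.16, 11.02 and 10.25 RPKM in hESC. Its mean was highest in mesendoderm, but neither mesendoderm (0.34 ± 0.13, adjusted p = 0.0778) nor neuroectoderm (-0.09 ± 0.13, adjusted p = 0.641) passed the threshold against hESC. Neuroectoderm was lower than mesendoderm (-0.43 ± 0.13, adjusted p = 0.0263). That call was lost without neuroectoderm replicate 2 (0.0657) or 3 (0.0503) and without mesendoderm replicate 2 (0.0749). LINC00339 had 10.20, 10.28 and 9.02 RPKM in neuroectoderm, 10.67, 10.72 and 9.93 RPKM in mesendoderm and 9.54, 8.90 and 8.91 RPKM in hESC, and passed the threshold in no comparison. LINC01021, now PURPL, a transcript induced by p53, averaged 7.11 ± 0.438 RPKM in neuroectoderm, 6.31 ± 0.467 RPKM in mesendoderm and 5.10 ± 0.275 RPKM in hESC (SD, n = 3 each) and rose in neuroectoderm by 0.41 ± 0.09 (adjusted p = 0.00582). LINC00338, now SNHG20, a host of a small Cajal body RNA that overlaps SEC14L1, averaged 2.10 ± 0.117 RPKM in neuroectoderm, 1.61 ± 0.151 RPKM in mesendoderm and 2.43 ± 0.162 RPKM in hESC, and fell in mesendoderm by 0.40 ± 0.09 (adjusted p = 0.00666).

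RefSeq lists 58 of the 69 as long noncoding RNAs and 9 as protein coding, and the other 2 are LINC00086 and LINC00087. The 9 are LINC00617 (TUNAR), LINC00493 (SMIM26), LINC00998 (SMIM30), LINC00116 (MTLN), LINC00371 (C13orf42), LINC00094 (BRD3OS), LINC00890 (SERTM2), LINC00085 (SPACA6) and LINC00959 (C10orf143). LINC00493 and LINC00116 encode small mitochondrial proteins. LINC00493 had 3.05, 10.23 and 10.72 RPKM in neuroectoderm, 10.36, 21.19 and 12.69 RPKM in mesendoderm and 14.72, 5.89 and 7.88 RPKM in hESC. LINC00116 had 0.62, 3.76 and 3.95 RPKM in neuroectoderm, 3.46, 7.41 and 6.64 RPKM in mesendoderm and 6.74, 1.80 and 5.11 RPKM in hESC. For both, neuroectoderm replicate 1, mesendoderm replicate 1 and hESC replicate 2 were the lowest of their groups, and neither passed the threshold in any comparison. Without these 3 libraries LINC00116 was lower in neuroectoderm than in hESC (difference -0.50 ± 0.13, adjusted p = 0.0128). That fit has 2 libraries per group and leaves out those that were lowest for LINC00116, so it is not independent support for a difference.

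Another 7 LINC RNAs (10.1%) were at least 1.5 times as high in neuroectoderm replicate 1 and in hESC replicate 2 as in both other libraries of the same group, against 2.48% of all genes tested. They were LINC01060, LINC00671, LINC00964, LINC00112, LINC01004, LINC00426 and LINC01010. Their median GC content was 46.2% (range 37.2% to 54.4%), and that of all genes with this pattern 46.5%. The median was 49.6% for the LINC RNAs and for all genes tested, where GC content was known. LINC00671 (53.8%) and LINC00112 (54.4%) lay above it. LINC01060, among the 10 most abundant members, had 33.67, 2.58 and 6.59 RPKM in neuroectoderm, 1.73, 2.25 and 2.85 RPKM in mesendoderm and 6.47, 12.45 and 4.27 RPKM in hESC. LINC01010 had 2.18, 0.03 and 0.17 RPKM in neuroectoderm, 0.09, 0.05 and 0.01 RPKM in mesendoderm and 0.42, 1.37 and 0.32 RPKM in hESC. In both, 1 neuroectoderm library exceeded the other 2 by more than the groups differ, and none of the 7 passed the threshold in any comparison. LINC00671 had 2.44, 0.20 and 0.35 RPKM in neuroectoderm, 0.08, 0.14 and 0.05 RPKM in mesendoderm and 1.18, 2.45 and 0.61 RPKM in hESC. Without the 3 libraries that stood apart LINC00671 was lower than in hESC in neuroectoderm (-0.56 ± 0.17, adjusted p = 0.0252) and in mesendoderm (-0.78 ± 0.17, adjusted p = 0.00869). LINC00112 was then lower as well, with differences of -0.30 ± 0.11 in neuroectoderm (adjusted p = 0.0492) and -0.54 ± 0.11 in mesendoderm (adjusted p = 0.00602). LINC00671 and LINC00112 were picked for being high in 2 of the libraries left out. Leaving those out narrows their spread within neuroectoderm and hESC by construction, and 2 libraries per group remained. These p-values are therefore not independent support for a difference. Without neuroectoderm replicate 1 alone, LINC00671, LINC00426 and LINC00337 joined the hESC-restricted class, which then held 5. Without all 3 libraries 24 LINC RNAs were higher and 21 lower in neuroectoderm against hESC, with 39 called in both fits, and 11 were higher and 17 lower in mesendoderm against hESC, with 22 called in both fits. All genes tested were then called at 58.2% and 47.1%. In neuroectoderm against mesendoderm 21 were higher and 14 lower, with 31 called in both fits, and 60.3% of all genes were called.

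**Figure D5:**
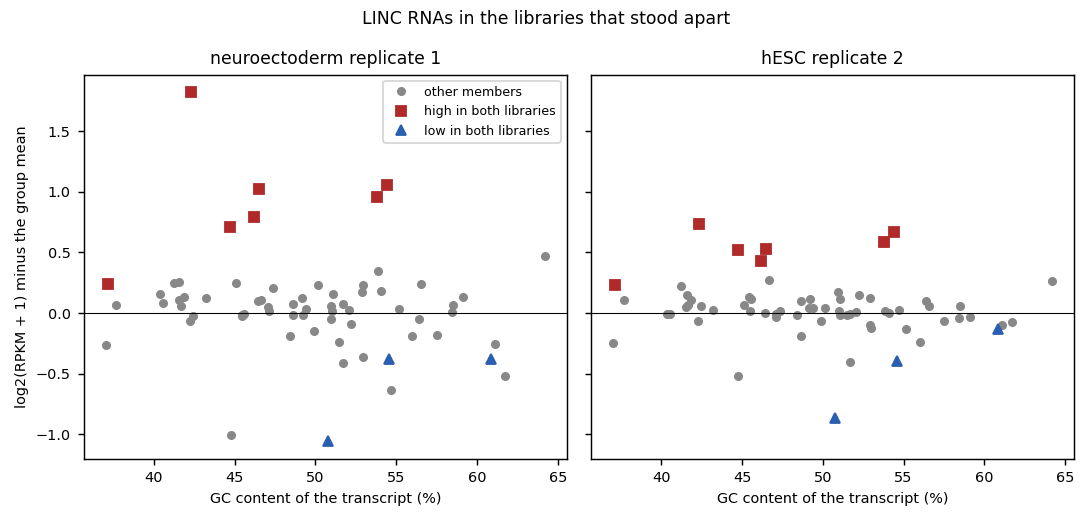
Deviation of each LINC RNA from its group mean of log2(RPKM + 1) (vertical axis) against the GC content of its transcript in percent (horizontal axis), in neuroectoderm replicate 1 and hESC replicate 2. Red squares are the 7 members that were high in both libraries and blue triangles the 3 that were low in both, LINC00116, LINC00526 and LINC01003.

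LINC00461 and LINC00085, whose microRNAs are printed above, were not among the restricted transcripts. LINC00461, the host of miR-9-2 and thus of a microRNA of neural progenitors, had 0.57, 0.35 and 0.49 RPKM in neuroectoderm, 0.60, 0.63 and 0.23 RPKM in mesendoderm and 1.03, 1.12 and 1.21 RPKM in hESC. It fell against hESC in neuroectoderm (-0.53 ± 0.12, adjusted p = 0.00779) and in mesendoderm (-0.52 ± 0.12, adjusted p = 0.0108). These values are of 1 of its 3 transcripts, the others having means of 0.0467 RPKM each. LINC00085 had 1.66, 1.59 and 1.69 RPKM in neuroectoderm, 2.63, 2.34 and 1.80 RPKM in mesendoderm and 1.69, 1.48 and 1.5 RPKM in hESC, while microRNA genes within it varied far more. MIR99B had 85.89, 4.30 and 6.94 RPKM in neuroectoderm, 4.30, 3.88 and 5.01 RPKM in mesendoderm and 23.58, 31.14 and 12.04 RPKM in hESC. MIR125A had 69.33, 3.33 and 6.78 RPKM in neuroectoderm, 5.25, 2.53 and 4.37 RPKM in mesendoderm and 14.32, 26.36 and 10.53 RPKM in hESC. Neuroectoderm replicate 1 was the highest library for both of these microRNA genes. MIRLET7E had 0.93, 0.18 and 0.00 RPKM in neuroectoderm, 0.27, 0.34 and 0.31 RPKM in mesendoderm and 0.62, 1.38 and 0.53 RPKM in hESC, with hESC replicate 2 the highest.

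For 45 LINC RNAs the neighbouring gene averaged at least 0.5 RPKM and was tested, by the order of genes in the RefSeq annotation of another build, GRCh38.p14. Neighbours under that minimum were left out. Where a LINC RNA and its neighbour were both called, they moved in the same direction in 8 of 11 pairs in neuroectoderm against hESC, 5 of 5 in mesendoderm against hESC and 14 of 18 in neuroectoderm against mesendoderm. Over all neighbouring pairs of genes tested these shares were 63.1%, 62.4% and 64.1% of pairs with both called. LINC00263 lies beside SCD, the desaturase that makes monounsaturated fatty acids. SCD had 36.28, 31.07 and 37.09 RPKM in neuroectoderm, 146.37, 137.10 and 145.19 RPKM in mesendoderm and 187.34, 199.12 and 205.52 RPKM in hESC, lowest in neuroectoderm as LINC00263 was (-2.47 ± 0.13, adjusted p = 1.14e-06). ATP2B1, a plasma membrane calcium pump that overlaps LINC00936, had 46.07, 28.61 and 32.44 RPKM in neuroectoderm, 24.29, 13.08 and 17.80 RPKM in mesendoderm and 5.39, 8.06 and 6.15 RPKM in hESC. The 2 transcripts had the same order of groups, and whether the counting used strand is not given in the sources used here, so reads of 1 may be counted for the other. The same limit holds for the other members that overlap a coding gene, 8 in all. TRAF5, beside LINC00467, averaged 4.93 ± 0.536 RPKM in neuroectoderm, 6.87 ± 0.279 RPKM in mesendoderm and 3.35 ± 0.396 RPKM in hESC (SD, n = 3 each), again with mesendoderm highest. ZNF281, a zinc finger factor beside LINC00862, averaged 16.9 ± 0.418, 23.0 ± 0.535 and 30.4 ± 2.21 RPKM in neuroectoderm, mesendoderm and hESC. In neuroectoderm against hESC 3 pairs were called in opposite directions. LINC00599 differed by -3.59 and its neighbour TNKS by 0.73, and LINC00665 by -0.76 and ZFP14 by 0.72. LINC00638 differed by 0.73 and ZBTB42 by -0.95. For LINC01010 the neighbour differed where the LINC RNA did not pass the threshold. SGK1, a kinase beside LINC01010, averaged 0.553 ± 0.110 RPKM in neuroectoderm, 49.8 ± 4.84 RPKM in mesendoderm and 6.88 ± 0.557 RPKM in hESC. LINC00526 and LINC00667 are annotated on opposite strands of chromosome 18 with promoter windows that share 170 bases. LINC00667 averaged 3.71 ± 0.0924 RPKM in neuroectoderm and 2.88 ± 0.440 RPKM in hESC, and LINC00526 2.07 ± 0.709 and 1.35 ± 0.577 RPKM (SD, n = 3 each). LINC00526 did not pass the threshold (adjusted p = 0.181), and LINC00667 was just past it (0.29 ± 0.10, adjusted p = 0.0439). The call of LINC00667 was lost when any library other than hESC replicate 2 was left out, with adjusted p from 0.0547 to 0.146 and the difference at 0.19 without hESC replicate 1.

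Long noncoding RNAs named outside the LINC scheme gave further context. Of 20 tested, 4 were higher and 6 lower in neuroectoderm against hESC, and 3 were higher and 7 lower in mesendoderm against hESC. ESRG, a transcript of pluripotent cells, had 0.75, 0.80 and 0.93 RPKM in neuroectoderm, 10.99, 18.85 and 13.37 RPKM in mesendoderm and 27.42, 24.73 and 26.28 RPKM in hESC, the same order as LINC00678. CRNDE averaged 9.56 ± 1.59 RPKM in neuroectoderm, 1.66 ± 0.523 RPKM in mesendoderm and 1.39 ± 0.385 RPKM in hESC (SD, n = 3 each). RMST, a neural transcript, averaged 19.9 ± 3.72, 2.16 ± 0.633 and 7.80 ± 0.814 RPKM in neuroectoderm, mesendoderm and hESC. HOTAIRM1, transcribed from the HOXA cluster, had 0.09, 0.08 and 0.30 RPKM in neuroectoderm, 3.77, 0.73 and 2.81 RPKM in mesendoderm and 0.00, 0.08 and 0.00 RPKM in hESC. Among 174 antisense RNAs by symbol 61 were higher and 11 lower in neuroectoderm against hESC (35.1% and 6.32%), and 15 were higher and 27 lower in mesendoderm against hESC. The share of LINC RNAs higher in neuroectoderm was 34.8%, and that lower 23.2%.

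Just inside the minimum level were LINC01010 (mean 0.516 RPKM), LINC00426 (0.517 RPKM) and LINC00862 (0.532 RPKM), and just outside it LINC00379 (0.496 RPKM), LINC00672 (0.480 RPKM) and LINC00536 (0.472 RPKM). Of the 297 LINC symbols under the minimum, 21 had a mean of at least 0.5 RPKM in 1 group or more and were not tested. LINC00648 had 0.91, 1.21 and 0.85 RPKM in neuroectoderm, 0.10, 0.20 and 0.26 RPKM in mesendoderm and 0.08, 0.11 and 0.09 RPKM in hESC. LINC00842 had 0.05, 0.04 and 0.05 RPKM in neuroectoderm, 0.79, 0.70 and 0.78 RPKM in mesendoderm and 0.05, 0.14 and 0.08 RPKM in hESC. A minimum over all libraries therefore leaves out low transcripts that are high in 1 lineage. LINC00261, which lies beside FOXA2 and is known from definitive endoderm, was at most 0.05 RPKM in mesendoderm and at most 0.09 RPKM in hESC.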

How the data were processed

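RPKM values of 9 RNA libraries, deposited by the authors as 1 table of 38759 transcript rows rounded to 2 decimals, were analysed. Per the labels' protocols, total RNA was depleted of ribosomal RNA before library preparation with an Ion Torrent total RNA kit. The submitters' processing notes list TopHat, TopHat2 2.0.13, Bowtie2 and build hg19. How reads were counted, whether strand was used and where reads with several matches went is not given in the sources used here. Each of 21417 symbols was represented by its transcript with the highest mean. Those averaging 0.5 RPKM or more, 14473 in all, were fitted on log2(RPKM + 1), which understates changes of low genes, in 1 model of 3 groups (R 4.3.3, limma 3.58.1, variance trend on). Calls are at a Benjamini-Hochberg adjusted p under 0.05 over all 14473. Values are not counts, so no count test was used. Denominators were inferred per library as those that made the most low values of microRNA genes whole multiples of 1 read, within 0.1. This held for 96.6% to 99.3% of 117 to 165 values per library. The choice maximised this share, so it is no independent check. Limits from 3 reads cover counting error only. The fit was tested on simulated data. Deviations of same-numbered libraries of neuroectoderm and mesendoderm had correlations of 0.229 to 0.392, and those of same-numbered pairs involving hESC -0.738 to 0.401. Between neuroectoderm and mesendoderm, pairs with unlike numbers had -0.371 to 0.241, the highest being neuroectoderm replicate 3 with mesendoderm replicate 2. The unlike-numbered pair of hESC replicate 2 and neuroectoderm replicate 1 had 0.787. Whether the numbers pair neuroectoderm with mesendoderm libraries was not tested. The numbers were not taken to pair libraries, and the main fit has no replicate block. LINC RNAs named are the 10 most abundant, all restricted or low in 1 group, the 8 largest rises and falls per comparison and a list of 16 with known roles, of which 12 were members, 2 (LINC00261, LINC00511) lay under the minimum and 2 had no row in the table. Members named beside these were chosen after their values were seen. The members and lists were chosen with earlier results of these data known. RefSeq matched 61 members by accession and 6 by an older symbol.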

Additional observations from a re-analysis of the deposited data

How the results depend on the processing

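Of 101 called changes of LINC RNAs, 71 kept their call in every alternative that tested them, 75 in every alternative other than an adjusted p under 0.01, and 30 lost it in at least 1. In none was the direction reversed. With a minimum of 2 RPKM, which removes members by construction, 12 were higher and 7 lower in neuroectoderm against hESC, 2 and 7 in mesendoderm against hESC, and 13 and 6 in neuroectoderm against mesendoderm. Of the 11453 genes tested at that minimum 42.5%, 32.3% and 46% were called. By class, 0 members remained restricted to mesendoderm, 1 to hESC, 2 low in 1 group only, 16 broad and 8 graded. At an adjusted p under 0.01, 15 were higher and 13 lower in neuroectoderm against hESC (30.2% of all genes were called, against 44.2% at 0.05) and 5 higher and 10 lower in mesendoderm against hESC (21.8% of all genes, against 35.1%). A margin of 2 times gave 6 members restricted to neuroectoderm, 2 to mesendoderm, 8 to hESC and 16 graded, and one of 8 times gave 1 restricted to hESC and 2 low in 1 group only. Without the 3 libraries that stood apart, 5 were low in 1 group only, against 8 with all libraries; the cause was not tested.

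Leaving out each library in turn gave 17 to 24 higher and 14 to 19 lower in neuroectoderm against hESC, 5 to 12 and 11 to 20 in mesendoderm against hESC, and 20 to 24 and 10 to 13 in neuroectoderm against mesendoderm. All genes were called at 34.9% to 51.3%, 25.2% to 46.3% and 38.4% to 51.8% in these fits, so the share called moved over all genes too. The classes ranged over 2 to 5 restricted to hESC, 5 to 8 low in 1 group only (5 without mesendoderm replicate 2), 23 to 29 broad and 26 to 34 graded, while 2 stayed restricted to neuroectoderm and 1 to mesendoderm. With the replicate block 22 were higher and 16 lower in neuroectoderm against hESC, 7 and 12 in mesendoderm against hESC, and 22 and 12 in neuroectoderm against mesendoderm. Of all genes 39%, 29.2% and 43.2% were then called, against 44.2%, 35.1% and 48.1% without the block. The block ended 2 calls of the first comparison, LINC00667 (adjusted p = 0.0867) and LINC00938 (0.0554), and 4 of the second, LINC00085 (0.056), LINC00998 (0.0553), LINC01000 (0.0578) and LINC01011 (0.0739). With 3 reads on 1 kb at 0.0432 to 0.0812 RPKM, depth limits the group levels near or under these values, such as those of LINC00678 in neuroectoderm.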
